A study of Mus musculus with 4 samples.

Results

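The miRNAs numbered miR-1894 to miR-1983 are a block of 67 probes among the 566 mouse miRNA probes of a nanoString nCounter panel. The rule uses the miRNA number and no count, but the block was chosen with earlier results of these data known. Its contrasts with the rest of the panel are therefore descriptions and not independent tests. The 67 probes were counted in 4 pools of sorted mouse retinal cells, 1 library for each group. P2 RPC held progenitor cells of postnatal day 2, pooled from 8 retinas and marked with tdTomato through Sox2-driven CreER. P8 MG, P11 MG and adult MG held Müller glia of day 8, day 11 and adult mice, pooled from 52, 32 and 40 retinas and marked with tdTomato through Rlbp-driven CreER. Every pool carried the same stop-flanked tdTomato allele and came from mice given 75 mg/kg tamoxifen on 2 days in a row. The injections fell on days 0 and 1 for P2 RPC, 6 and 7 for P8 MG and 9 and 10 for P11 MG, and beyond the age of 21 days for adult MG. The sample labels give day 2 for the progenitors, while the series text calls them adult, and 1 title gives P11/12 for the P11 MG library. Besides the cells each driver is used for, Sox2 is active in Müller glia and some amacrine cells, and Rlbp in the retinal pigment epithelium, so the sort defines each pool only as far as the driver does. Driver, cell type, age, number of retinas and assay lane differ together between P2 RPC and the glia and cannot be told apart. Since each group is a single library, the spread between replicates is unknown and no p-values are given.

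MicroRNAs are short RNAs that guide the silencing machinery to messages that pair with their seed, bases 2 to 8. They are numbered in order of discovery, and the numbers of this block were given to candidates that early deep sequencing of mouse tissues turned up, many of them rare and with no assigned role. miR-204, made from an intron of Trpm3, is a major miRNA of both Müller glia and the pigment epithelium of the retina. Its probe had the highest count of all miRNA probes in adult MG, and the counts of the block were set against it. The panel ligates a tag to each miRNA over a bridging oligonucleotide and then counts barcodes, so a count depends on the probe as well as on the miRNA, and an order of counts between probes is not an order of miRNA levels.

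RefSeq (build GRCm38.p6) listed a mature sequence under the exact name of 39 of the 67. A further 11 were listed only as a 5p or 3p arm that the probe names do not specify, and 17 had no mature entry. Sequences that the results turn on follow, those of the block only where listed under the exact name. Each runs from 5′ to 3′ with its seed in capitals. Not printed, for want of a mature entry, are miR-1927, miR-1940, miR-1944, miR-1959, miR-1965 and the miR-1937 probes. For miR-1955, miR-1964, miR-1966, miR-1968 and miR-1981 only arms were listed, and these are not printed either. The reference miRNA comes first, with miR-211, which differs from it by the single substitution A17U (counted from the 5′ end, miR-204 base first). Both are given as the 5p arm, for which the names miR-204 and miR-211 have long stood. Next stand the exactly listed miRNAs of the block whose counts were higher in adult MG. Then come miR-1906 and miR-1952, whose counts differed less, and miR-1983, whose counts were lower.
miR-204-5p: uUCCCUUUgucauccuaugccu
miR-211-5p: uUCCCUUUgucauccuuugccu
miR-1951: gUAGUGGAgacugguguggcua
miR-1960: cCAGUGCUguuagaagagggcu
miR-1933-5p: aGUCAUGGuguucggucuuaguuu
miR-1900: gGCCGCCCucucugguccuuca
miR-1896: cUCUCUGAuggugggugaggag
miR-1961: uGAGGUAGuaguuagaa
miR-1906: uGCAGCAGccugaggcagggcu
miR-1952: uCUCCACCcuccuucug
miR-1983: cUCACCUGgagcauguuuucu

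None of these members shares the miR-204 seed. Over the 39 matched sequences the longest run of bases in common with miR-204-5p was 2 to 5 bases, with a median of 4. Among the 7 matched miRNAs whose counts lay near a straight line on miR-204 (described below) it was 2 to 5, with a median of 3. The longest run complementary to miR-204-5p was 2 to 6 bases over all 39 and 3 to 5 in those 7. The share of G and C ranged from 35.3% to 68.2% in the 7, with a median of 54.5%, which was also the median over all 39. The lowest share of G and C in the 7 was that of miR-1961, and among the 31 matched miRNAs not above background in adult MG the range was 39.1% to 72.7%. Near the same line lay miR-1927, miR-1955, miR-1959, miR-1965, miR-1966, miR-1968 and miR-1981, which had no exact entry and were not compared. Of the miRNAs that tracked miR-204 by the other measure described below, only miR-1951 was compared.

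miR-1961 carries the let-7 seed, which it shares with 10 other mature mouse miRNAs, the let-7 members and miR-98 among them. Its first 13 bases match those of let-7g-5p and let-7i-5p, and the first 11 those of let-7a-5p and let-7c-5p.
let-7g-5p: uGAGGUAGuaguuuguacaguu
let-7i-5p: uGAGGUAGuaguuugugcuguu
It was the only one of the 39 matched miRNAs of the block with that seed. RefSeq places the 17 bases of miR-1961 on the minus strand at chr5:92788465-92788481, within the span of Shroom3. miR-1983 lies on the minus strand at chr13:21896930-21896950, and 13 of its 21 bases fall inside a tRNA gene, n-TItat14, the only such overlap among the 39. miR-1906 has 2 loci, at chr12:109544588-109544609 within Meg3, the maternally expressed lncRNA of the Dlk1-Dio3 imprinted region, and at chrX:88759485-88759506. Of the others printed, miR-1960 lies at chr5:30170751-30170772 within Hadhb, a mitochondrial fatty acid oxidation gene, and miR-1933-5p at chr11:21344640-21344663 within Ugp2. miR-1900 lies at chr9:21032261-21032282 within Icam5, miR-1896 at chr13:21445209-21445230 within Zscan26 and a lncRNA, and miR-1951 at chr2:115638777-115638798 within BC052040. miR-1952, at chr2:138819943-138819959, overlaps no annotated gene. In all, 32 of the 39 overlap the span of another gene, miR-1983 only in part, and strands were not compared. Whether they are exonic or intronic was not determined, since the gene table used gives spans only.

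The lanes held 576117 to 769736 counts in all and 470304 to 695390 on mouse miRNA probes, the adult MG lane being the deepest. A count was taken as above background when it exceeded the mean of the 8 negative probes in its lane by more than 2 SD. From the youngest pool to the adult pool, this threshold was 60.7, 137, 106 and 71.7 raw counts, and values given below as a run of 4 keep this order of libraries. The panel holds only 4 mRNAs, none of which marks a cell type, so the labels were set against marker miRNAs. The 5 listed for Müller glia were miR-204, miR-125b-5p, miR-9, miR-99a and miR-100. All were above background in every library, and their summed normalized counts were 86731 in P2 RPC against 493501 in adult MG. This sum includes miR-204, the reference for the block, with 23470 in P2 RPC and 284092 in adult MG. Raw counts of miR-9 were nearly level (63981 and 65337), while miR-125b-5p had 4547 and 94931 and miR-99a 1375 and 17195. The 6 progenitor markers went from 61010 to 3442, the 4 neuronal markers from 6965 to 1846 (2 of 4 above background in each glial library) and the 3 photoreceptor markers from 20274 to 779. The 4 leukocyte markers summed to 250.4, 971, 1182 and 516, the 2 endothelial markers to between 268.7 and 460, and neither red blood cell marker was above background in any library. The part of any of these cells in the counts below was not tested. In bulk pools, fewer cells of a type and less RNA per cell cannot be told apart.

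Most of the block was not detected. In P2 RPC 17 of the 67 were above background, 25.4%, against 38.9% of all 566 miRNA probes. The counts were 13 of 67 in P8 MG (19.4%, against 23.7% of all), 16 in P11 MG (23.9% against 26.3%) and 18 in adult MG (26.9% against 30.2%). The share of the block lay below that of the panel in each library, by most in P2 RPC. Among the 468 probes with numbers below miR-1894 the share was 40.8% in P2 RPC, with 30.3% in adult MG, and among the 23 with numbers above miR-1983 it was 17.4% and 13.0%. Of 33 probes for viral miRNAs, which mouse cells do not make, 4 (12.1%) passed the same threshold in P2 RPC, none in P8 MG or P11 MG and 2 (6.06%) in adult MG. Some passes are thus to be had without a target, most of all in P2 RPC. In all, 21 of the 67 were above background in at least 1 library and 12 in all 4, namely miR-1896, miR-1900, miR-1906, miR-1927, the shared probe of miR-1937a and miR-1937b, miR-1937c, miR-1944, miR-1960, miR-1961, miR-1965, miR-1966 and miR-1968. The plot of shares above background sets the block beside its neighbours by number.

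**Figure D1:**
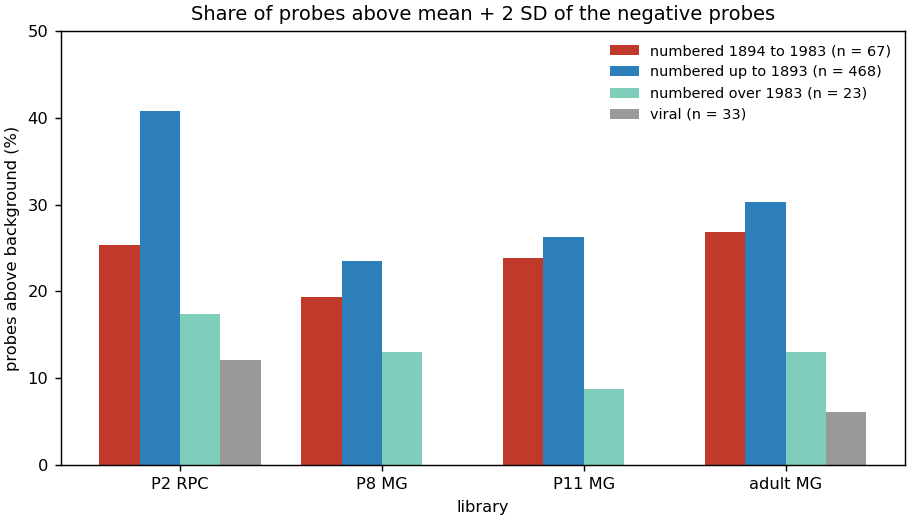
Share of probes above background (%, y axis) in each of the 4 libraries (x axis) for the 67 miRNAs from miR-1894 to miR-1983, the 468 with lower numbers, the 23 with higher numbers and the 33 viral probes, with 1 library per group and no error bars. The block stands at 25.4% in P2 RPC, below the 40.8% of the lower numbers, and at 26.9% in adult MG, near their 30.3%.

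The other 46 were above background in no library. Their raw counts ran from 4 to 57, 7 to 107, 6 to 88 and 5 to 68, with medians of 21.5, 28.5, 27.5 and 22. The negative probes, with no target in the sample, had 18 to 53, 20 to 114, 16 to 97 and 11 to 62, so these 46 are not distinguishable from empty probes at this depth. They are miR-1894-3p, miR-1894-5p, miR-1895, miR-1897-3p, miR-1898, miR-1899, miR-1901 to miR-1905, miR-1907, miR-1928 to miR-1932, miR-1933-3p, miR-1934 to miR-1936, miR-1938, miR-1939, both arms of miR-1941, miR-1942, miR-1943, miR-1945, miR-1946a, miR-1946b, miR-1947 to miR-1950, miR-1953, miR-1954, miR-1956 to miR-1958, miR-1962, miR-1963, miR-1967, miR-1969 to miR-1971 and miR-1982. miR-1928 has the seed of miR-221-3p and miR-222-3p, which restrain cell-cycle inhibitors, and its raw counts were 42, 71, 65 and 46. At the edges of the block, miR-1894-5p had 55, 100, 82 and 36 raw counts. Just outside it, miR-1893 had 43, 93, 51 and 44 and miR-2132 had 25, 77, 55 and 17. These 3 were at background in every library. Just inside the upper limit stands miR-1983, with 149, 57, 43 and 16, which passed the threshold in P2 RPC.

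The counts of the block were concentrated on a few probes. Together the 67 made up 3.23%, 2.58%, 2.58% and 1.99% of the miRNA counts. The probes of miR-1944, miR-1937a with miR-1937b, and miR-1937c alone held 77.7%, 58.8%, 59.8% and 43.1% of those. The remaining 64 had 3482, 4998, 5024 and 7866 raw counts in sum. No background was subtracted, and 46 of the 64 were at background in every library. The negative probes had means of 35.8, 70.5, 50.4 and 38.6 counts. These sums and shares therefore include counts without a target, most per probe in P8 MG. The 3 probes thus had their highest share in P2 RPC, and the sum of the others was highest in adult MG.

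miR-1944 had 8207, 5147, 5477 and 4389 raw counts. P2 RPC was the highest of the 4 libraries and the glia lay close together. Scaled on the 100 miRNA probes with the highest counts, its normalized count in adult MG was 1.47-fold lower (1.42 to 1.53) than that of P2 RPC, under the 2-fold size used for calls. Ranges in brackets are 95% intervals for the counting error and cover no other error. The probe of miR-1937a and miR-1937b, names later assigned to tRNA fragments, had 2592, 1327, 1368 and 986 raw counts. Between P2 RPC and adult MG its normalized count was 2.07-fold lower (1.92 to 2.23) in the latter. miR-1937c, of the same family and possibly sharing counts with it, had 1299, 665, 613 and 586 and was 1.74-fold lower (1.58 to 1.93). The ratio of the miR-1937a and miR-1937b probe to miR-1937c was 2.0, 2.0, 2.23 and 1.68, so the proportion of the probes was alike in P2 RPC and P8 MG and lowest in adult MG. All 3 probes had their step between P2 RPC and P8 MG, where the ratios were 1.56-fold lower (1.5 to 1.61), 1.91-fold lower (1.79 to 2.04) and 1.91-fold lower (1.74 to 2.10), all under the threshold.

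miR-1983, the miRNA overlapping a tRNA gene whose sequence is printed above, had 149, 57, 43 and 16 raw counts. It was above background in P2 RPC only, so the order of its counts among the glia carries no information. Against the adult MG threshold it was at least 1.64-fold lower in adult MG, which does not reach the 2-fold size. miR-1964 had 79, 109, 74 and 57 and was above background in P2 RPC only, and miR-1940 had 61, 143, 67 and 47, which passed the thresholds of P2 RPC and P8 MG by a few counts. No fold is given for these against adult MG, where they were at background. miR-1940 was 2.40-fold higher (1.77 to 3.29) in P8 MG than in P2 RPC, with the background of the P8 MG lane higher by a like amount, from 60.7 to 137.

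**Figure D2:**
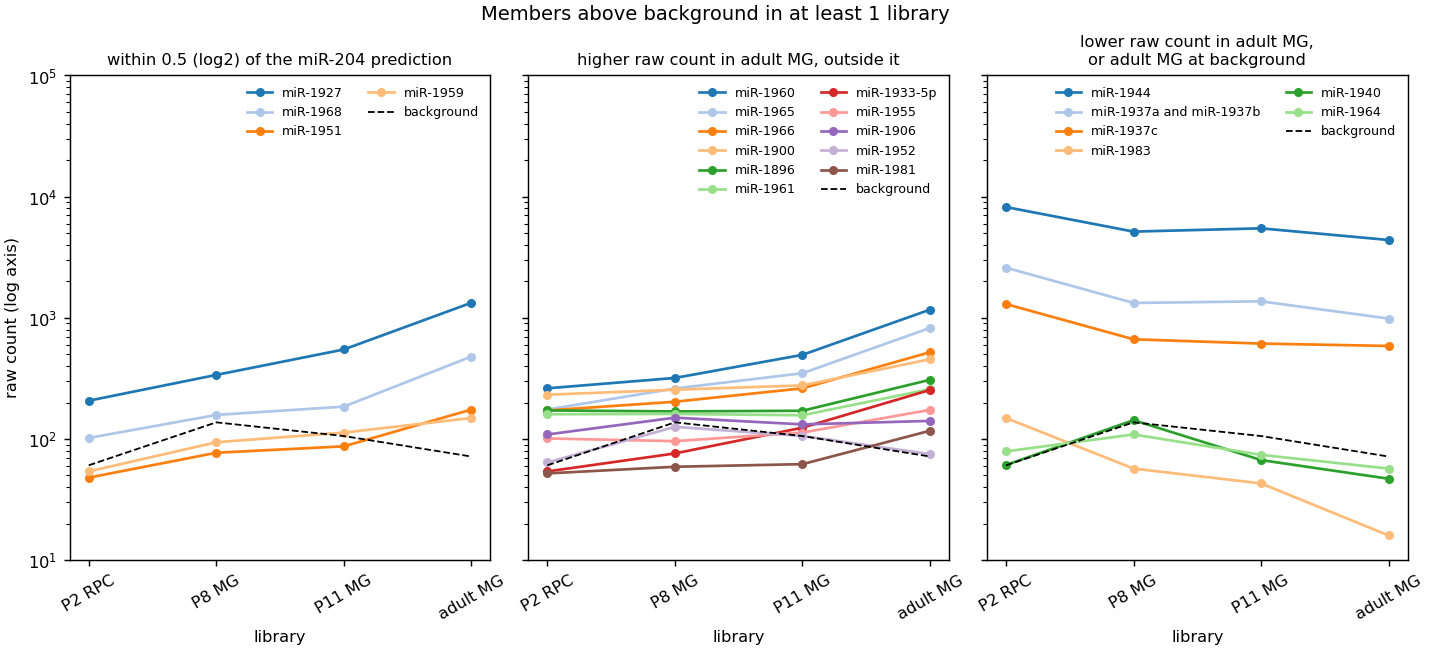
Raw counts (y axis, log scale) in the 4 libraries (x axis) of the 21 miRNAs of the block above background in at least 1 library, with the lane's background as a dashed line and 1 library per point. Left, the 4 that lay within 0.5 (log2) of the count predicted from miR-204; middle, the other 11 with a higher raw count in adult MG than in P2 RPC; right, the 6 with a lower count or at background in adult MG, where miR-1944 goes from 8207 to 4389 and miR-1983 from 149 to 16.

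In adult MG against P2 RPC, 13 of the 21 testable miRNAs of the block were at least 2-fold higher and 1 at least 2-fold lower. Over all 242 miRNA probes above background in either library the shares were 20.7% higher and 16.5% lower. The median log2 ratio was 1.19 in the block and 0.22 over all 242, with values at background set to the threshold. The block itself is part of both figures, and among the other 221 probes 37 were higher and 39 lower. The 13 were miR-1896, miR-1900, miR-1927, miR-1933-5p, miR-1951, miR-1955, miR-1959, miR-1960, miR-1961, miR-1965, miR-1966, miR-1968 and miR-1981, and 4 of these ratios are bounds. Scaled on total miRNA counts, of which miR-204 alone made up 35.6% in adult MG, the count was 6 higher and 4 lower, and 6 of the 13 (miR-1927, miR-1933-5p, miR-1960, miR-1965, miR-1966 and miR-1968) held under all 8 scalings. Of the others, miR-1951 and miR-1959 held under 7, miR-1900 and miR-1981 under 6, miR-1896 under 5, and miR-1955 and miR-1961 under 4. The 1 lower call, of the miR-1937a and miR-1937b probe, held under 5 of the 8.

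miR-1927 had 207, 338, 548 and 1331 raw counts, each library above the one of younger cells. Its ratio of adult MG to P2 RPC was 8.17 (7.05 to 9.50), the largest of the block. miR-1960, with 262, 319, 495 and 1168 raw counts, was 5.66-fold higher (4.95 to 6.50). miR-1965, with 175, 261, 349 and 825, was 5.99-fold higher (5.08 to 7.09). These 3 had the same order of libraries and the most counts of the rising set in adult MG.

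miR-1968 had 102, 158, 185 and 479 raw counts and an adult MG to P2 RPC ratio of 5.97 (4.81 to 7.46). miR-1966 had 172, 203, 262 and 520 and was 3.84-fold higher (3.23 to 4.59). miR-1933-5p had 54, 76, 124 and 254 raw counts, passed its threshold from P11 MG onwards, and was at least 5.32-fold higher in adult MG. Its opposite arm, miR-1933-3p, had 16, 26, 20 and 17 and was at background throughout, so the higher count was seen on the 5p arm probe alone.

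The remaining rising miRNAs had fewer counts. miR-1951 had 48, 77, 87 and 175 raw counts, above background in adult MG only, and was at least 3.66-fold higher there. miR-1959 had 54, 94, 113 and 149 and was at least 3.12-fold higher, and miR-1981 had 52, 59, 62 and 117 and was at least 2.45-fold higher. None of the 3 passed the threshold in P2 RPC or P8 MG.

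miR-1900, miR-1896, miR-1961 and miR-1955 had nearly level raw counts until P11, although miR-1955 was at background in P8 MG (96 counts). miR-1900 had 232, 255, 277 and 455 raw counts and a ratio of 2.49 (2.12 to 2.93). miR-1896 had 172, 169, 171 and 308 (2.27-fold, 1.88 to 2.76), and miR-1955 had 101, 96, 113 and 174 (2.19-fold, 1.70 to 2.83). miR-1961 had 160, 161, 157 and 258 and was 2.05-fold higher (1.67 to 2.51). In these 4 the adult MG library stood above the other 3, whose raw counts differed little among themselves. Normalized counts in P2 RPC, P8 MG and P11 MG were 210, 236 and 300 for miR-1900 and 91.3, 88.8 and 122 for miR-1955. For miR-1896 they were 155, 156 and 185, and for miR-1961 145, 149 and 170. The P11 MG to P2 RPC ratio of raw counts was 0.99 for miR-1896, 0.98 for miR-1961, 1.12 for miR-1955 and 1.19 for miR-1900, and 3.82 for miR-204. The let-7 members that share the first bases of miR-1961 had varied courses. Raw counts of let-7g were 15750, 14952, 14317 and 13583, and those of let-7i 12334, 10505, 7160 and 2148. Those of let-7a were 9477, 8259, 8728 and 7077, and those of let-7c 7030, 17538, 26463 and 22705. let-7c, like miR-1961, had more raw counts in adult MG than in P2 RPC, though with its highest count in P11 MG. let-7g, let-7i and let-7a had fewer. On normalized counts let-7g was slightly higher in adult MG (15597 against 14236), while let-7a and let-7i were still lower. let-7b, which has the same seed, had 6889, 15605, 19881 and 15661 raw counts. The remaining miRNAs with that seed were not set beside miR-1961.

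miR-1906 and miR-1952 passed in neither direction. miR-1906 had 109, 150, 132 and 141 raw counts and a ratio of 1.64 (1.27 to 2.13). miR-1952 had 64, 126, 106 and 75, with its highest counts in the libraries with the highest background, and a ratio of 1.49 (1.05 to 2.11).

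**Figure D3:**
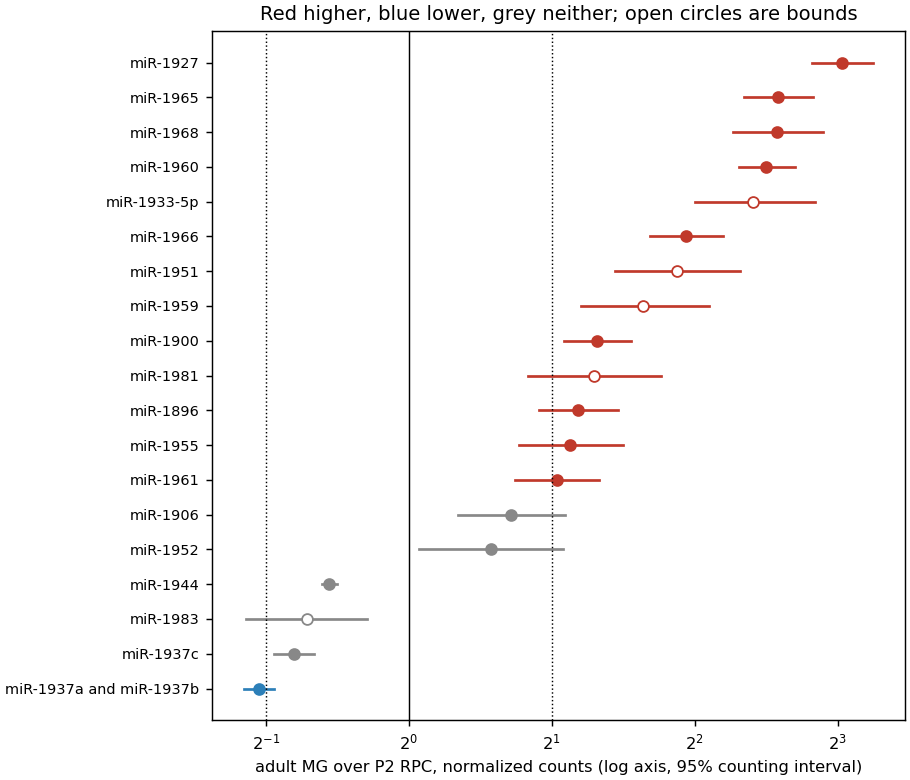
Ratio of normalized counts in adult MG to P2 RPC (x axis, log scale) for the 19 miRNAs of the block with a fold to give, with 95% counting intervals as lines and dotted lines at 2-fold in either direction. Open circles are bounds set by the background threshold, which entered their intervals as if it were a count. The 13 in red lie from 2.05 (miR-1961) to 8.17 (miR-1927), and the miR-1937a and miR-1937b probe in blue is 2.07-fold lower.

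The steps between neighbouring libraries were smaller. In P8 MG against P2 RPC, 1 of 17 testable miRNAs, miR-1940, was higher and none lower, against 12.7% and 9.17% of all 229 probes tested. In P11 MG against P8 MG none of 17 was higher or lower, against 2.55% and 6.37% of 157. There miR-1927 came nearest, with a ratio of 1.90 (1.66 to 2.18). In adult MG against P11 MG 6 of 18 were higher and none lower, against 12.8% and 12.3% of 179. The 6 were miR-1968 (2.74-fold, 2.31 to 3.27), miR-1927 (2.57, 2.33 to 2.85), miR-1965 (2.51, 2.21 to 2.85), miR-1960 (2.50, 2.25 to 2.78), miR-1933-5p (2.17, 1.74 to 2.71) and miR-1966 (2.10, 1.81 to 2.45). The block's median log2 ratio was 0.80 in that step and the median over all 179 was -0.17. All 6 were lost on total miRNA counts. These comparisons share libraries, so their calls are not independent.

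miR-204 had 25967, 55841, 99116 and 247414 raw counts, a 9.53-fold range. Of the 67 miRNAs of the block, 12 had raw counts in the same strict order of libraries, 17.9%, against 23 of 498 other probes or 4.62%. These counts take in probes at background, whose order carries no information. Of the 12, miR-1900, miR-1927, miR-1960, miR-1965, miR-1966 and miR-1968 were above background in all 4 libraries. With 4 libraries no correlation is given. In its place, the count of each miRNA was predicted in P2 RPC, P8 MG and P11 MG as the mean of the lane's negative probes plus a fixed share of the lane's miR-204 count, the share being taken from adult MG. A miRNA was said to track miR-204 when all 3 observed counts lay within 0.5 (log2) of the prediction, and the 18 above background in adult MG were judged.

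The 4 that tracked miR-204 by this measure were miR-1927, miR-1968, miR-1951 and miR-1959. Of all 170 judged probes, the block included, 8 did, or 4.71%, and the 4 outside the block were miR-105, miR-1190, miR-338-5p and miR-574-3p. None of these 4 passed the threshold in either P2 RPC or P8 MG, so the share rests largely on counts at background, as it does for miR-1951 and miR-1959. miR-1927 had predicted counts of 171, 362 and 568 in P2 RPC, P8 MG and P11 MG and observed counts of 207, 338 and 548, deviations of 0.27, -0.10 and -0.05. For miR-1968, with predictions of 82.0, 169.9 and 226.8 counts, the deviations were 0.32, -0.10 and -0.29. miR-1951 deviated by -0.06, -0.40 and -0.27 and miR-1959 by 0.19, -0.02 and 0.26. In those last 2 every prediction lay below the background threshold of its library, and miR-1951 was itself at background in all 3 predicted libraries, so agreement there is agreement between background counts. miR-1927 and miR-1968 were above background in all 4 libraries.

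The other 14 did not track it, and P2 RPC was where most departed. There 12 of the 18 had more counts than predicted by over 0.5 (log2) and none had fewer, while in P8 MG 6 had more and 2 fewer, and in P11 MG 5 more and none fewer. For miRNAs with few counts the prediction in P2 RPC lay near the negative-probe mean of 35.8, as in miR-1952 (39.6) and miR-1906 (46.5). A count lower by over 0.5 (log2) would there lie below that mean, so fewer counts could hardly be seen. miR-1960 was predicted at 154 counts in P2 RPC and had 262 (0.76), with deviations of -0.03 and -0.02 in the P8 MG and P11 MG libraries. miR-1965 had 175 against 118 in P2 RPC (0.57) and deviated by 0.07 and -0.07 in the other libraries. miR-1966 had 172 against 86.3 (1.0), miR-1900 had 232 against 79.5 (1.55), miR-1961 had 160 against 58.8 (1.44) and miR-1896 had 172 against 64.0 (1.43). With P2 RPC left out of the measure, 10 of 18 tracked miR-204. The 2 with fewer counts than predicted in P8 MG were miR-1933-5p (-0.65) and miR-1981 (-0.58), both at background there. miR-1944 and the miR-1937 probes stood farthest off, with 3.80 to 4.26 more on the log2 scale in P2 RPC.

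Where each miRNA was allowed a constant of its own, by a straight line on miR-204 through its P2 RPC and adult MG counts, 14 of the 18 lay within 0.5 (log2) of the line in P8 MG and P11 MG. Over all 170 probes 44.7% did so, and outside the block 62 of 152. The 14 were the 13 called higher and miR-1906. Of these, miR-1951 and miR-1981 were at background in P2 RPC, P8 MG and P11 MG, and miR-1933-5p and miR-1959 in P2 RPC and P8 MG. For those miRNAs the agreement rests largely on counts at background. For miR-1906 the ends of the line differed only 1.29-fold, less than the tolerance, and miR-1896 and miR-1961 passed with counts level until P11, so for these the line is a weak test. The constants of the 14 ran from 30.5 counts for miR-1933-5p to 206 for miR-1900, with a median of 95.6. In 4 of the 14 the constant exceeded the background of every lane. In P11 MG 11 of the 14 lay below their line and in P8 MG 10 did. Exceptions were miR-1944 (-0.58 and -0.34 in P8 MG and P11 MG), the miR-1937 probes and miR-1952 (0.94 and 0.65). With P2 RPC and adult MG on the line by construction, only 2 libraries test it.

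**Figure D4:**
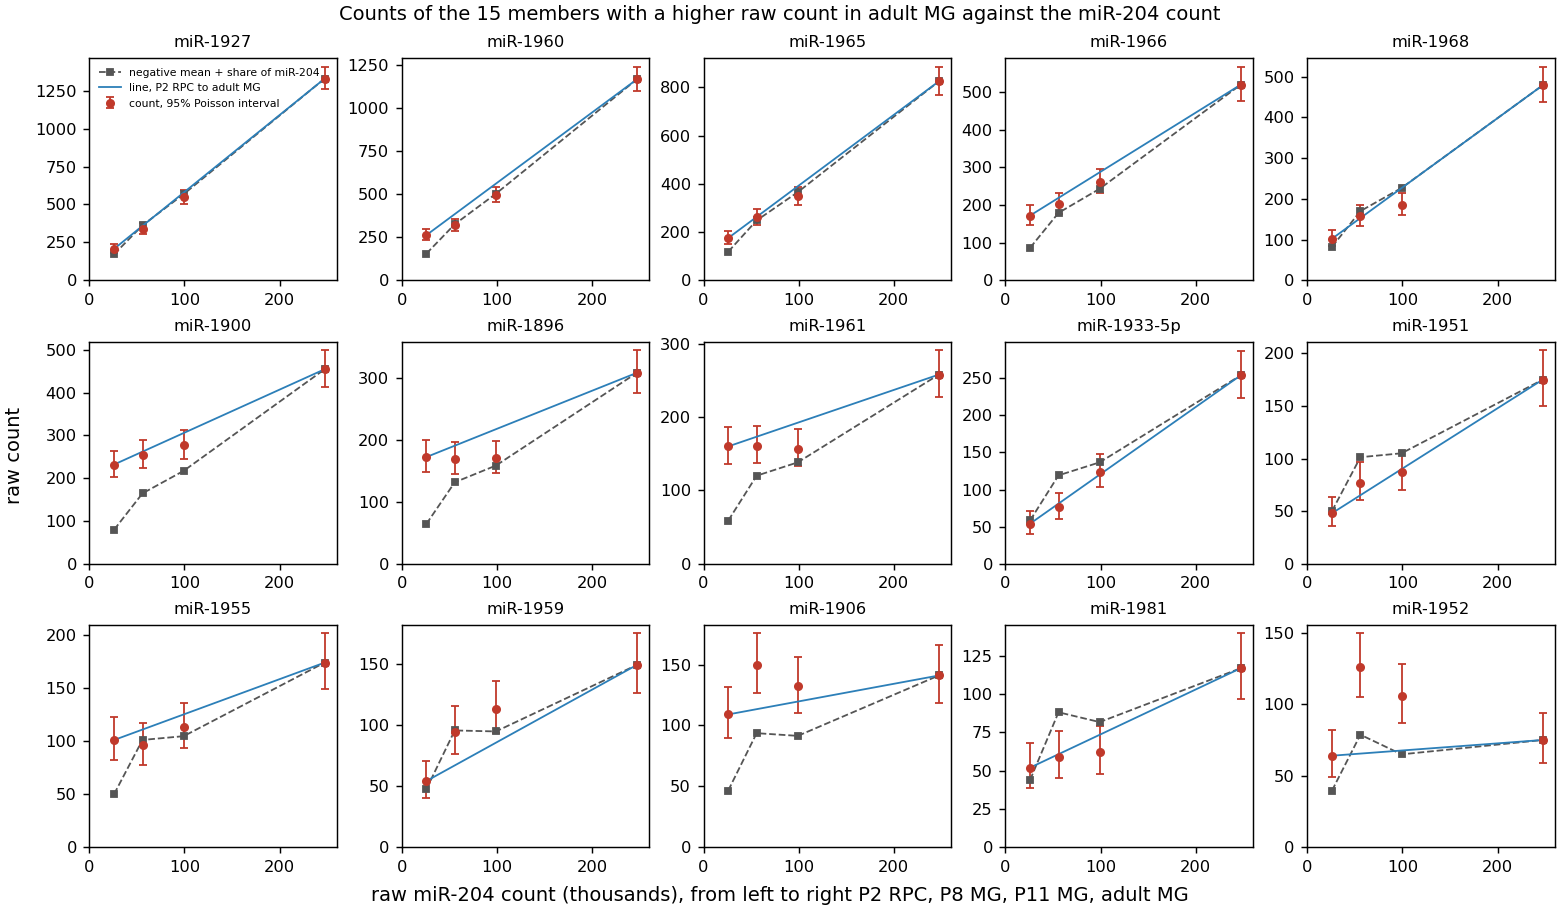
Raw count of each of the 15 miRNAs of the block with a higher raw count in adult MG (y axes, each on its own scale from 0) against the raw miR-204 count of the same library (x axis, units as labelled), with 95% Poisson intervals, 1 library per point. Grey squares are the negative-probe mean plus a share of miR-204 fixed in adult MG, and the blue line joins P2 RPC to adult MG. miR-1927 lies near both, with 207 counts against a grey prediction of 171 in P2 RPC. There miR-1900, miR-1896 and miR-1961 lie farther above the grey prediction (232 against 79.5 for miR-1900).

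miR-204 was not alone in predicting these counts. Each of the 10 miRNA probes with the highest counts in adult MG was used in turn as the predictor, with the mean of the lane's negative probes as the constant. miR-181a and miR-30c each gave 4 of 18 within 0.5 (log2), as many as miR-204. For miR-181a, with 25080, 26599, 29255 and 42317 raw counts, they were miR-1900, miR-1906, miR-1952 and miR-1961. For miR-30c, with 4087, 3372, 3776 and 12121, they were miR-1896, miR-1955, miR-1959 and miR-1966, of which miR-1959 was also among those of miR-204. miR-125b-5p gave miR-1951 and miR-1959, and a constant normalized level gave miR-1952 alone. miR-1927 and miR-1968 were within the limit for miR-204 only, among these 10 predictors. With a constant for each miRNA, miR-125b-5p gave 14 of 18, as miR-204 did, and miR-181a 13. By these measures miR-204 was not the only miRNA that predicted the counts of the block.

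miR-211, which has the miR-204 seed, had 18, 70, 114 and 329 raw counts and passed background in P11 MG and adult MG. Its counts in P2 RPC lay below the negative probes' mean of 35.8. The adult MG lane was also the deepest, with 769736 counts against at most 583699 in the others, and the part of depth in the results was not tested beyond the scalings named.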

How the data were processed

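Per the labels' protocols, sorts were pooled per group, RNA was purified with a micro-scale miRNA kit, and miRNAs were tagged by ligation and counted on the nanoString nCounter. The authors deposited whole-number counts of 626 probes as raw data, and these were used throughout. Their second deposited table holds a processed score per probe; it served as an alternative, since how the authors made it is not given in the sources used here. Lanes were scaled by the geometric mean of 6 positive controls and then of the 100 most abundant miRNA probes (factors 0.904, 0.925, 1.08 and 1.15 from P2 RPC to adult MG). A call needed a count above background in the higher library, a ratio of at least 2 and an exact conditional binomial 95% interval that left out equality. Counts at background were set to the threshold, in the interval too, so the error of the threshold itself is not covered. Tracking used raw counts. All detected miRNAs of the block are named, with values. The members, lists and rules were chosen with earlier results of these data known. Alternatives covered 7 scalings (among them edgeR 4.0.16 TMM factors), background, fold, filter and tolerance. The rules were tested on simulated data. Python 3.11.15, numpy 2.4.6, scipy 1.17.1 and pandas 2.3.3 were used. Sequences and gene names come from RefSeq, GRCm38.p6; no build is named for the panel.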

Additional observations from a re-analysis of the deposited data

How the results depend on the processing

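Each group was 1 library, so no replicate could be left out and no paired analysis was possible because no group has a second library. Of the settings tried, 87 gave a count within 1.5 times that reported and 55 did not. In P8 MG, a background of mean plus 3 SD or the authors' score left 8 of the block detected. In adult MG against P2 RPC, 6 were higher and 4 lower on total counts, 8 and 3 on housekeeping mRNAs and 8 and 0 at 3-fold. The lower count was 0 on the top 50 probes, ligation controls and median-of-ratios factors, 2 on TMM factors, 3 at 1.5-fold and 2 without a background filter. In adult MG against P11 MG, 0 were higher and 1 lower on total counts, 10 higher on positive controls, 11 on ligation controls, housekeeping mRNAs or at 1.5-fold, and 0 at 3-fold, with 5 lower without a filter. In P11 MG against P8 MG, 1 was higher on housekeeping mRNAs and on TMM factors, 4 at 1.5-fold and 5 in the authors' score, and 1 was lower without a filter. In P8 MG against P2 RPC, the count lower was 2 on positive controls, and higher and lower were 0 and 5 on housekeeping mRNAs, 0 and 3 on TMM factors, 4 and 3 at 1.5-fold, 14 and 1 without a filter and 0 and 5 in the authors' score. The higher count there was 2 with the highest negative probe as background and 0 at mean plus 3 SD, at 3-fold or at 3 times background. The miRNAs tracking miR-204 numbered 2 at a tolerance of 0.3, 10 at 1, 2 among those at 3 times background and 14 on the free line. Leaving out P2 RPC, P8 MG or P11 MG gave 4 to 10. With other predictors the number was 2 for miR-125b-5p or let-7b, 1 for miR-9, let-7c, let-7g or a constant level, and 0 for miR-720 or miR-99a. Against the scaling used, the others moved every log2 ratio of adult MG to P2 RPC by -0.87 to 0.44; beyond that shift, and the fewer probes that a stricter filter leaves, causes were not tested. Signal over background limits the low miRNAs most in P8 MG, where the negative probes were highest and 137 counts were needed.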
